A study of Mus musculus with 3 samples.

Results

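The MS4A genes are described here in mouse regulatory T cells, by 6 members named beforehand: Ms4a4b, Ms4a4c, Ms4a6b, Ms4a6c, Ms4a6d and Ms4a1. They were taken by gene name from the 55536 annotated genes of the deposited gene tables, and all 6 were found. The members were chosen because Ms4a4b was known to be among the most abundant transcripts of these libraries, so the levels below are a description and were not tested. The series holds 1 group, polyA-selected RNA from regulatory T cells that the labels describe as inflammation-experienced, taken from an adult male mouse aged 16 weeks. The strain is Foxp3GFP-DTRCD4CreERT2R26tdTomato, a name that lists a GFP and diphtheria toxin receptor allele at Foxp3, an inducible Cre under Cd4 and a tdTomato reporter at the Rosa26 locus. Every library carries these alleles, and the sources used here do not give how inflammation was brought about. The labels number 3 libraries, called library 1, 2 and 3 here, as technical replicates of a single biological replicate and donor. Each SD is over these 3 libraries, and no spread between animals can be given.

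The MS4A family, short for membrane-spanning 4-domain subfamily A, encodes small proteins that cross the cell membrane several times and mostly sit at the surface of blood cells. Its genes lie together in a cluster, and many of them mark a cell type: Ms4a1 encodes CD20 of B cells, Ms4a2 the beta chain of the IgE receptor of mast cells and basophils, and Ms4a4a and Ms4a7 are known from macrophages. Ms4a4b, also called Chandra, is known from T cells, where its protein has been found with the receptor GITR. Ms4a4c is counted among the interferon-stimulated genes of the mouse, and Ms4a6d is known from macrophages, where its protein partners VSIG4. Ms4a6b and Ms4a6c are close relatives of Ms4a6d.

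Ms4a4c and Ms4a4b, and likewise Ms4a6c and Ms4a6b, are related genes of 1 strand that differed in gene-level abundance in these libraries, so the sequences before their starts are shown. The 4 sequences were read from the RefSeq promoter table (GRCm38.p6, plus strand of chromosome 19), which gives 250 bases before and 50 after each start and was matched by symbol for these 4 of the 6 members. Capitals mark bases that differ from the other gene of the pair, or have no partner there, in the best local alignment. The coordinates are chr19:11443353-11443553 for Ms4a4b, chr19:11407458-11407660 for Ms4a4c, chr19:11518311-11518488 for Ms4a6b and chr19:11469193-11469366 for Ms4a6c.
Ms4a4b: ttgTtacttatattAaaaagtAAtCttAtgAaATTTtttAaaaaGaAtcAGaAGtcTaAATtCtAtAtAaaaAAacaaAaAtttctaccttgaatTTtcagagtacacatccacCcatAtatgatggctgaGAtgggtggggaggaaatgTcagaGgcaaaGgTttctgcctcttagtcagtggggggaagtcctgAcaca
Ms4a4c: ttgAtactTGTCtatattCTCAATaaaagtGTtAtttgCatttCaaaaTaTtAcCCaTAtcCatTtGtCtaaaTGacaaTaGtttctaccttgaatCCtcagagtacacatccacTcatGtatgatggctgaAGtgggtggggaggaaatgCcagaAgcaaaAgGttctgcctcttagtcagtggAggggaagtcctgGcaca
Ms4a6b: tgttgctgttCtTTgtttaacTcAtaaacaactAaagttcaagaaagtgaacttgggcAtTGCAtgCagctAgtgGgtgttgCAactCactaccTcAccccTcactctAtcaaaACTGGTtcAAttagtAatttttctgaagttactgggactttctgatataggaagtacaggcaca
Ms4a6c: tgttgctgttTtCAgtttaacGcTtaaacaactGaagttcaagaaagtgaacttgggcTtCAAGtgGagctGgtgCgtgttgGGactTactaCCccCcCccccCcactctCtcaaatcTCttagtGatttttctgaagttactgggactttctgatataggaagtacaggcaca
The Ms4a4b and Ms4a4c stretches were identical at 160 of 192 aligned bases (83.3%), with 20 bases that had no partner. Most of their differences lay in the distal part, and long runs near the start were shared. The Ms4a6b and Ms4a6c stretches were identical at 148 of 172 aligned bases (86.0%), with 8 bases that had no partner. These stretches lie at different distances from the starts, 248 to 71 bases before that of Ms4a6b and 175 to 2 bases before that of Ms4a6c. The mean level in TPM, a transcript abundance scaled for length and depth, was 46.1 times as high for Ms4a4b as for Ms4a4c and 53.6 times as high for Ms4a6b as for Ms4a6c. For Ms4a4b and Ms4a4c this ratio depended on the scale: it was 1.86 in TPM of coding transcripts alone, 6.16 per length of merged exons, 42.8 per length of the trimmed coding transcript and 3.67 in counts of a second gene table. For Ms4a6b and Ms4a6c the same scales gave 115, 47.7, 114 and 9.96. The second table's counts are not scaled for length. It held 4.65% and 7.91% of the first table's counts for Ms4a4b and Ms4a6b, but 39.4% and 83.5% for Ms4a4c and Ms4a6c. The level of Ms4a6c is itself uncertain, since 51.4% of its 50-base exon words also occur in another gene. Among 5 motifs searched on both strands of the 300-base windows, the ETS core GGAAGT occurred 1 time each in Ms4a4b and Ms4a4c and 2 times each in Ms4a6b and Ms4a6c. Each printed stretch holds it 1 time as ggaagt, so the other occurrence in Ms4a6b and in Ms4a6c is not in the printed letters. Of 32851 promoters, 23.8% hold it as well. The letters TGACTCA (AP-1), TGTTTAC (forkhead), TTCNNNGAA (STAT) and an interferon response motif occur in 5.20%, 3.65%, 8.30% and 3.44% of promoters, and none of the 4 windows held any of them.

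Ms4a4b was the highest member in gene TPM and in expected counts, but not in TPM of coding transcripts alone, per length of merged exons or in the second gene table, where Ms4a6b was higher. It stood at 2767, 2793 and 3213 TPM in libraries 1, 2 and 3, a mean of 2924 ± 251 TPM (SD, n = 3), from 29489, 26966 and 31385 expected counts. Library 3 was the highest and libraries 1 and 2 lay close together, and the mean ranked 19th among 22028 protein-coding genes. The gene (ENSMUSG00000056290.16) lies on chromosome 19 at 11443553 to 11467055 of mm10, on the plus strand.

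Ms4a6b followed at 869, 831 and 952 TPM, a mean of 884 ± 61.8 TPM, which ranked 115th. It lies on the plus strand at 11516512 to 11531256 (ENSMUSG00000024677.13), and 22075, 19173 and 22084 counts fell on it. Ms4a4c, between 11404770 and 11427246 on the plus strand (ENSMUSG00000024675.19), stood at 51.4, 64.8 and 74.1 TPM, a mean of 63.4 ± 11.4 TPM. Its rank was 2736. Library 1 was the lowest for Ms4a4c, whereas library 2 was the lowest for Ms4a6b.

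The other 3 members were low. Ms4a6c, at 11469366 to 11482192 on the plus strand (ENSMUSG00000079419.4), had 15.4, 15.2 and 18.9 TPM, a mean of 16.5 ± 2.12 TPM from 187, 183 and 233 counts. Ms4a6d, at 11586604 to 11604849 on the minus strand (ENSMUSG00000024679.10), had 8.80, 8.23 and 13.7 TPM, a mean of 10.3 ± 3.02 TPM from 136, 126 and 204 counts. Ms4a1, at 11249675 to 11266241 on the minus strand (ENSMUSG00000024673.9), had 3.68, 3.48 and 5.75 TPM, a mean of 4.30 ± 1.26 TPM from 142, 122 and 206 counts. In each of these 3 genes libraries 1 and 2 lay close together and library 3 stood above both. Their ranks were 6437, 7490 and 9041. Together the 6 members took 0.372%, 0.372% and 0.428% of all TPM in libraries 1, 2 and 3, of which Ms4a4b alone took 0.277%, 0.279% and 0.321%.

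In gene TPM the order was Ms4a4b, Ms4a6b, Ms4a4c, Ms4a6c, Ms4a6d and Ms4a1, and each single library gave the same order. The 5 steps were formed by sorting these means, so their direction is no finding, and each mean was over 2 SD of the technical libraries. The step from Ms4a4b to Ms4a6b was 1.67, 1.75 and 1.75 in log2(TPM + 1), a mean of 1.72 ± 0.05. The widest step, from Ms4a6b to Ms4a4c, was 3.79 ± 0.23, a ratio of means of 13.9. The steps from Ms4a4c to Ms4a6c, from Ms4a6c to Ms4a6d and from Ms4a6d to Ms4a1 were 1.87 ± 0.18, 0.66 ± 0.20 and 1.08 ± 0.04. The first and the fourth of these 5 steps turned their sign when length was counted in another way, as the transcript data show.

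**Figure D1:**
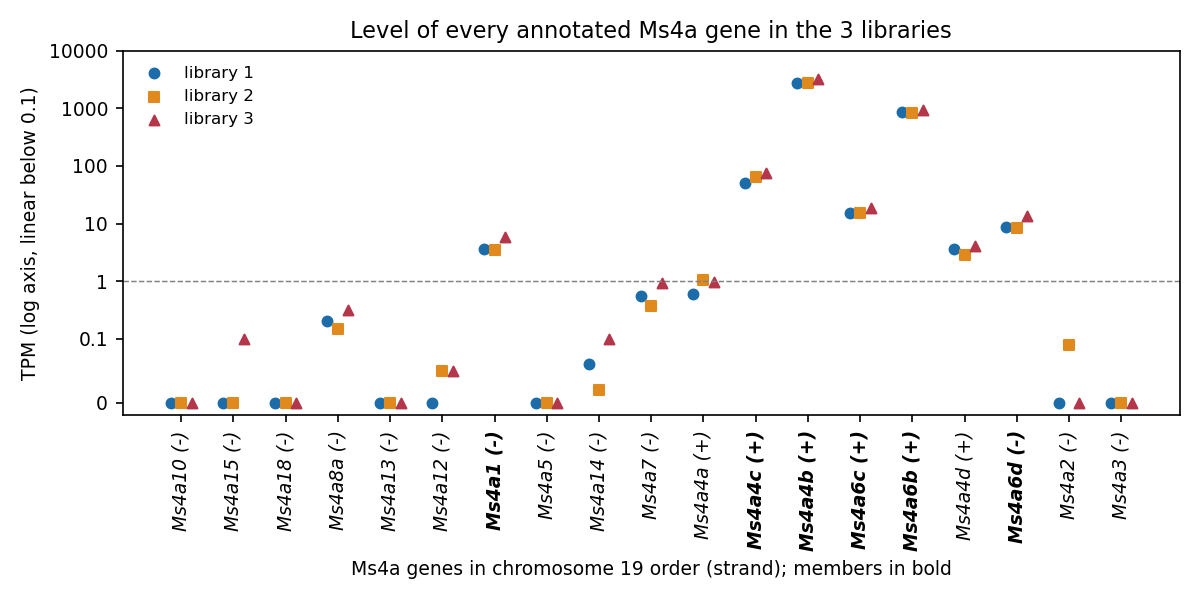
TPM of all 19 annotated Ms4a genes in chromosome 19 order, 1 point per library, on an axis that is logarithmic above 0.1 and linear below it, with a dashed line at 1 TPM. The 6 members are in bold, and Ms4a4b and Ms4a6b stand far above their neighbours in all 3 libraries.

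Ms4a4b's gene-level TPM rested on short transcripts annotated as retained introns. Of its 7 transcripts, 1 is protein-coding, 5 are retained introns and 1 is annotated for nonsense-mediated decay. Ms4a4b-207, a retained-intron model of 550 bases, took 57.2 ± 0.83% of the gene's TPM, and Ms4a4b-206, another of 798 bases, took 34.2%. These 2 models together held 2672 TPM, or 91.4% of the gene's TPM and 66.7% of its expected counts. The coding transcript Ms4a4b-201 stood at 114, 109 and 131 TPM in the 3 libraries, a mean of 118 ± 11.3 TPM. This was 4.04% of the gene's TPM, although it held 23.3% of its counts, since it is 4750 bases long.

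The 2 short models share much of their sequence with the coding transcript. Ms4a4b-206 overlaps exons 1 to 5 of Ms4a4b-201 and holds 64.6% of its coding bases, and Ms4a4b-207 overlaps exons 6 to 7 and holds the other 35.4%. Between them they hold 100% of the 678 coding bases, with 551 and 432 bases shared with Ms4a4b-201 and 247 and 118 bases outside its exons. The last exon of Ms4a4b-201 is 4097 bases long, and the transcript ends 3506 bases beyond the end of Ms4a4b in RefSeq. The effective lengths in the tables equal length minus 49 bases, the shape expected of unpaired 50-base reads. How such reads were divided between overlapping transcripts was not tested.

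Such a low coding share was uncommon among abundant genes. Over 1739 protein-coding genes at 100 TPM or more on average, coding transcripts took a median of 87.2% of the gene's TPM (lower quartile 62.8%), and 57 genes (3.28%) had under 10%. Ms4a6b had 71.7% of its TPM in coding transcripts, a mean of 634 ± 43.4 TPM, led by Ms4a6b-201 with 66.1 ± 1.68%. Its retained-intron transcript Ms4a6b-203, of 4286 bases, took 15.6% of TPM and 34.0% of counts. All 3 transcripts of Ms4a4c are coding, and Ms4a4c-201 took 56.6 ± 3.39% of its TPM.

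Ms4a6c showed the same kind of split as Ms4a4b. Ms4a6c-202, a retained-intron model of 639 bases, took 66.8 ± 4.13% of TPM but 40.0% of counts, and the coding Ms4a6c-201, of 1841 bases, stood at 4.39, 5.25 and 6.90 TPM. Ms4a6d and Ms4a1 were each led by a coding transcript, with 83.1 ± 5.55% of TPM for Ms4a6d-201 and 86.2 ± 5.0% for Ms4a1-201. By the TPM of coding transcripts alone, Ms4a6b was the highest member, ranked 137th of 21866 genes, while Ms4a4b ranked 1029th.

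**Figure D2:**
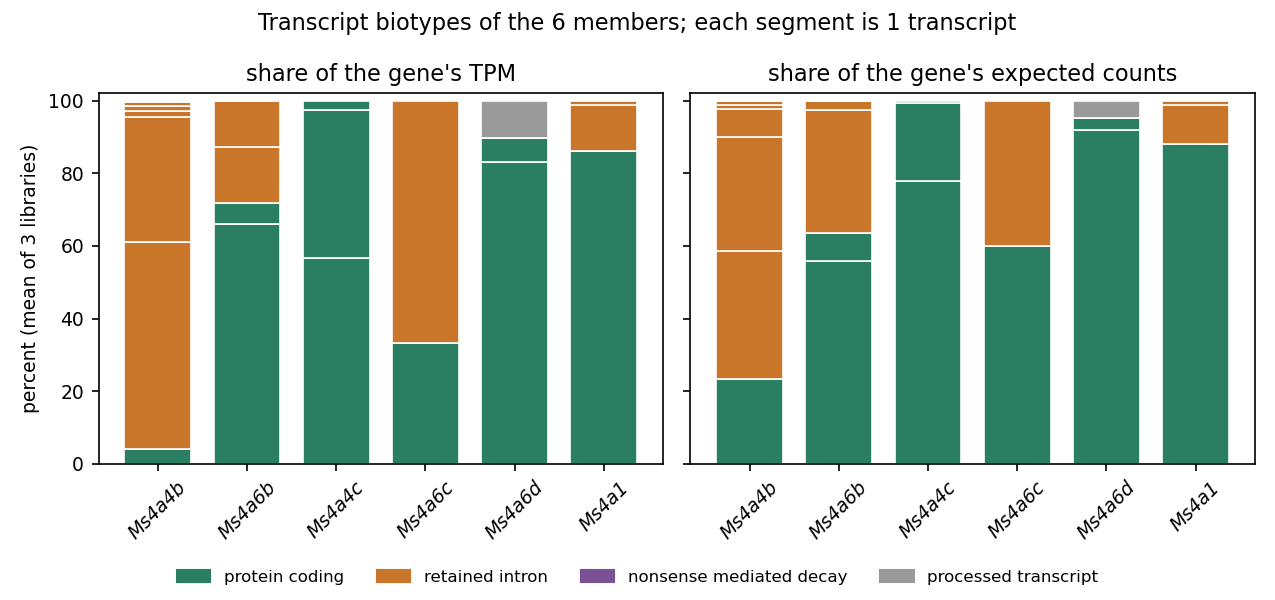
Mean percent over the 3 libraries of each member's TPM and of its expected counts by transcript, with 1 segment per transcript coloured by annotated biotype. Retained introns take most of the TPM of Ms4a4b and Ms4a6c, and less of their counts.

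The order of Ms4a4b and Ms4a6b therefore depended on what length the counts were divided by. With the gene's counts divided by its main coding transcript, cut to the extent of the gene in RefSeq (1244 bases for Ms4a4b and 1687 for Ms4a6b), Ms4a4b stood at 1129, 1175 and 1439 depth-scaled counts (CPM) per kilobase and Ms4a6b at 623, 616 and 747. Ms4a4b was higher in each library on this scale, with a log2 ratio of 0.91. With counts divided by all exons of the gene merged (8780 and 4485 bases), Ms4a4b had a mean of 177 ± 23.7 and Ms4a6b 249 ± 27.6 on the same scale, and the log2 ratio was -0.49. In coding TPM alone the log2 ratio was -2.42. In FPKM, a per-kilobase unit that uses the same lengths as TPM, the means were 1907 and 576.

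For Ms4a6c and Ms4a6d the order also turned. The log2 ratio of 0.66 in gene TPM was -0.63 in coding TPM, 0.12 per merged exon length and -0.03 per trimmed coding transcript. The remaining 3 steps kept their sign on every one of these scales. In expected counts, which are not scaled for length, Ms4a4b lay above Ms4a6b in all 3 libraries.

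**Figure D3:**
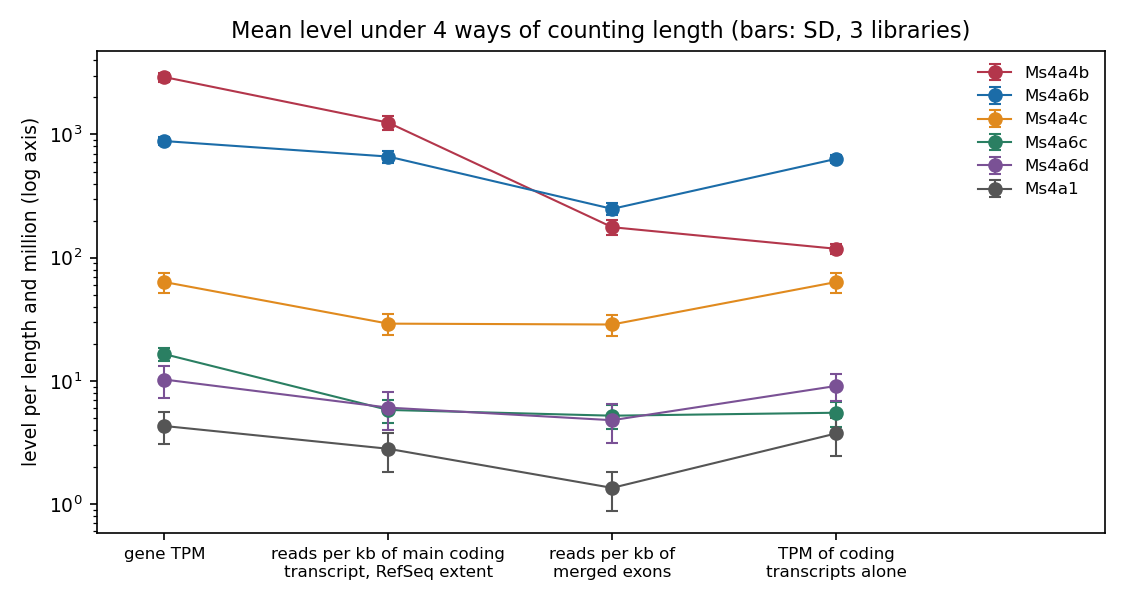
Mean level of each member, scaled for length and depth, on a log axis, under 4 ways of counting length, with SD over the 3 libraries as bars. The lines of Ms4a4b and Ms4a6b cross, and those of Ms4a6c and Ms4a6d do too.

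Reads could be shared between genes for Ms4a6c above all. Of the 50-base words in its exons, 1028 of 2001 (51.4%) also occur in another gene on either strand, and 993 of them occur in BE692007, a noncoding gene on the minus strand at 11470166 to 11484578. BE692007 stood at 69.1, 58.6 and 74.2 TPM, a mean of 67.3 ± 7.93 TPM, above Ms4a6c in each library. The sources used here do not say whether the counting used strand, so reads from the shared words cannot be told apart between Ms4a6c and BE692007, and the level of Ms4a6c is uncertain to that extent. For the other members the share was 2.40% in Ms4a4b, 3.57% in Ms4a6b, 8.19% in Ms4a4c, 2.54% in Ms4a6d and 1.21% in Ms4a1, and the most shared partner of Ms4a4b and Ms4a4c was the other of that pair, with 135 words. The deposited posterior SD of the counts was at most 3.85% of the count, for Ms4a6c.

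All 6 members were highest in library 3, and all 6 differed between the libraries beyond counting error. In log2 of the scaled count over the mean of the libraries, Ms4a4b deviated by -0.10, -0.07 and 0.15 in libraries 1, 2 and 3, and Ms4a6b by -0.04, -0.09 and 0.12. Ms4a6d deviated by -0.31, -0.26 and 0.44, and Ms4a1 by -0.26, -0.31 and 0.44. These 4 genes were higher in library 3 than in both other libraries, by little in the abundant pair and by more in the scarce pair. Ms4a6c deviated by -0.22, -0.09 and 0.26. Ms4a4c had a different pattern, with library 1 low at -0.30 and libraries 2 and 3 at 0.09 and 0.17.

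The test was Pearson's chi-square against Poisson counting, with edgeR TMM scaling and Benjamini-Hochberg adjustment over the 14877 genes that averaged 10 counts or more. It called 6 of 6 members at an adjusted threshold of 0.05, where it called 9501 genes or 63.9% of all tested genes, so a call says little about the family. Adjusted p was 1.9e-120 for Ms4a4b, 1.7e-52 for Ms4a6b, 4.4e-12 for Ms4a4c, 0.0034 for Ms4a6c, 1.1e-06 for Ms4a6d and 8.6e-07 for Ms4a1. The coefficient of variation was 9.80% in Ms4a4b and 7.70% in Ms4a6b, 16.7% and 17.8% in Ms4a4c and Ms4a6c, and 30.9% and 31.2% in Ms4a6d and Ms4a1. The median of the members was 17.2%, beside 17.0% over all genes tested. Library 3 was the highest for 40.0% of all genes tested.

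Single libraries carried several of these calls. Without library 3, Ms4a6c, Ms4a6d and Ms4a1 no longer passed (chi-square with edgeR TMM scaling, adjusted p = 0.57, 0.87 and 0.85). Then 3 members were called, and calls over all genes also fell, to 4487 of 14868. Without library 1, Ms4a4c no longer passed (same test, adjusted p = 0.28), and 5 members and 7692 of 14927 genes were called. Without library 2 the counts were 6 members and 8041 of 14885 genes.

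Library 3 also differed from the others by the local GC content of transcripts, and the members lie at the low end of that measure. The richest 200-base window of a member's leading transcript had 48.0% to 54.0% GC, against a median of 63.5% over all genes tested, and between 3.28% and 14.0% of tested genes were lower. A smooth trend of the deviation on this measure gave 0.11 to 0.14 log2 for the members in library 3. After its removal the deviation in library 3 was 0.02 for Ms4a4b, 0.01 for Ms4a6b, 0.04 for Ms4a4c, 0.14 for Ms4a6c, 0.32 for Ms4a6d and 0.33 for Ms4a1. The chi-square test then called 5 members and 8726 of 14877 genes, and Ms4a6c did not pass (adjusted p = 0.12, edgeR TMM scaling). Ms4a4b and Ms4a6b still passed (same test, adjusted p = 1.9e-06 and 0.016). For Ms4a4b and Ms4a6c the leading transcript was a retained-intron model, Ms4a4b-207 and Ms4a6c-202. The trend was fitted on these same libraries, and the part of GC content in the library 3 values was not tested.

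**Figure D4:**
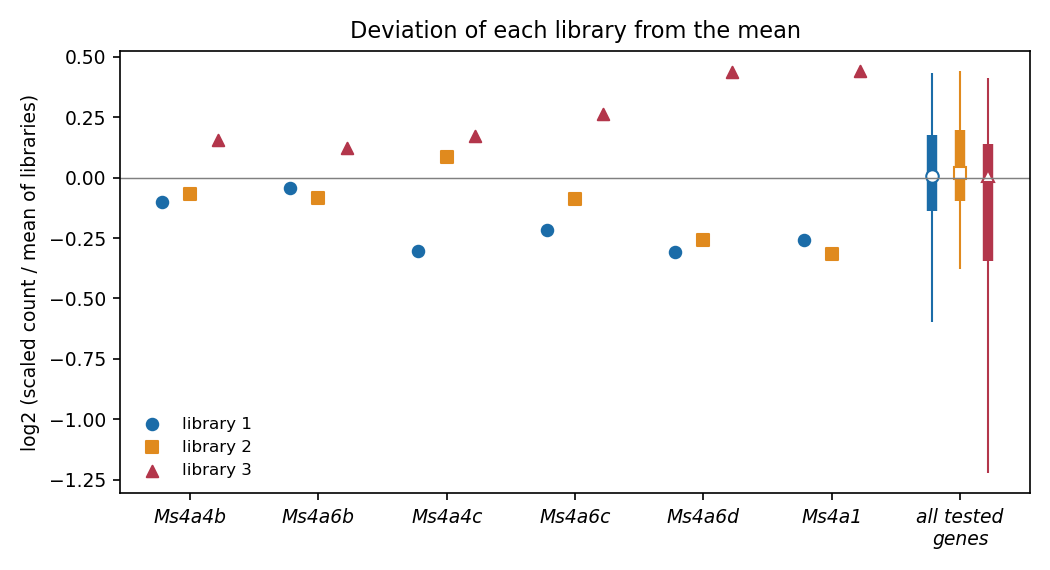
Log2 of each member's scaled count over the mean of the 3 libraries, 1 point per library, beside the spread of all tested genes. Library 3 is highest for each member, by 0.12 in Ms4a6b to 0.44 in Ms4a6d and Ms4a1.

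A second gene table, deposited with whole-number counts on an older annotation, gave a different picture of the 2 abundant members. Ms4a4b had 1369, 1357 and 1362 counts there, a coefficient of variation of 0.44% against 7.57% of unscaled counts in the first table. Ms4a6b had 1659, 1661 and 1688 counts, with 0.97% against 7.95%. Both were nearly level across libraries whose totals in that table ran from 5056487 to 6339932 counts, and Ms4a6b exceeded Ms4a4b, whereas the first table has the reverse order. The second table held 4.65% of the first table's counts for Ms4a4b and 7.91% for Ms4a6b, but 39.4% for Ms4a4c, 83.5% for Ms4a6c, 44.4% for Ms4a6d and 42.1% for Ms4a1.

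This shortfall went with how densely reads covered a gene. Over 10220 genes in both tables, the median share was 47.4% to 50.4% up to 1 expected count per base, 40.2% from 1 to 3, 19.9% from 3 to 10, 4.41% from 10 to 30 and 1.79% above 30. No gene exceeded 2.79 counts per base in the second table. Ms4a4b had 36.0 expected counts per base in the first table and 1.68 in the second, and Ms4a6b had 10.9 and 0.862. For both tables the counts were divided by the gene's mean effective length in the first table. That length was 813.5 bases for Ms4a4b, whose merged exons hold 8780 bases, so its density depends on the length used. Of 134 genes above 10 expected counts per base, 4 passed 2 in the second table. The sources used here do not give the counting rule of the second table, and its part in this was not tested. The same chi-square test on the second table with libraries scaled to each other called 6 of 6 members, where it called 6222 of 10964 genes or 56.7%. The relative library sizes used there were 1.09, 0.99 and 0.93 for libraries 1, 2 and 3. Since the unscaled counts of Ms4a4b and Ms4a6b were nearly level, their scaled differences follow these sizes. For this pair the call is therefore no separate support for the first table's result.

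**Figure D5:**
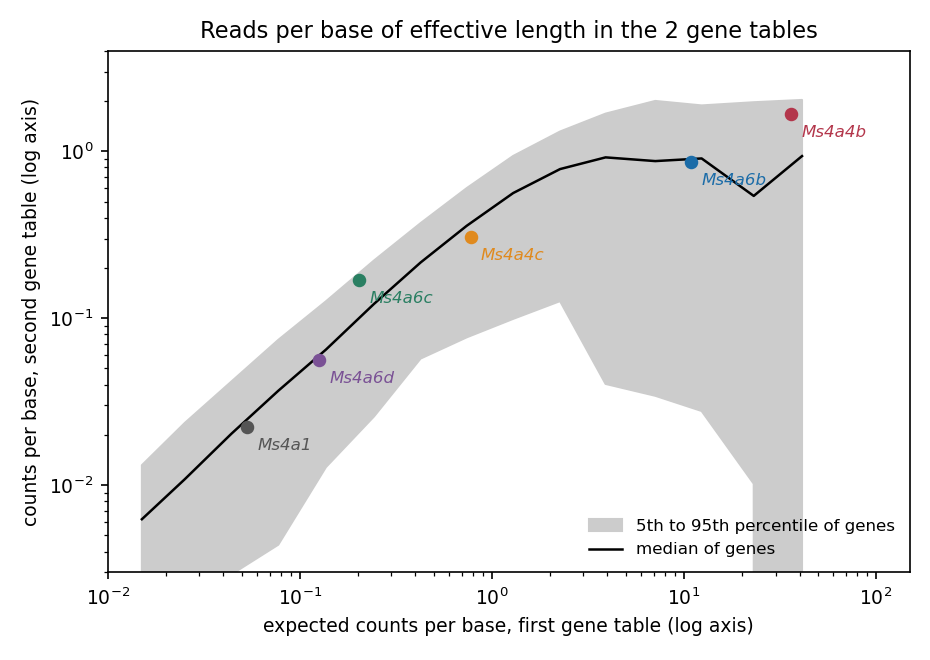
Counts per base in the second gene table against expected counts per base in the first, on log axes, with the median and the 5th to 95th percentile of genes and the 6 members as points. Counts of both are divided by the gene's effective length in the first table. The median curve flattens at high density, where Ms4a4b lies at 36.0 and 1.68 counts per base.

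The rest of the MS4A cluster was nearly silent. The annotation holds 19 Ms4a genes, all between 10962293 and 11640851 on chromosome 19. Of the 13 that are not members, 5 had 0 counts in all 3 libraries, 6 had counts but stayed under 1 TPM, and 2 reached 1 TPM. For the 5 genes at 0, 3 counts in a library would be 0.164 to 0.353 TPM, a limit for counting error only. Ms4a3, known from granulocyte and monocyte progenitors, was among these 5, and Ms4a2 had 0.09 TPM in library 2 and 0 in the others. Ms4a4d, next to Ms4a6b, stood at 3.56, 2.81 and 4.10 TPM and did not pass the test between libraries (chi-square with edgeR TMM scaling, adjusted p = 0.15). Ms4a4a stood at 0.59, 1.06 and 0.96 TPM, and Ms4a7 at 0.55, 0.37 and 0.91 TPM.

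Outside the cluster, the related genes Tmem176b and Tmem176a on chromosome 6 were detected at 12.9, 21.8 and 14.5 TPM and at 8.45, 11.1 and 8.44 TPM. Both were highest in library 2, unlike the members, and both differed between the libraries (chi-square with edgeR TMM scaling, adjusted p = 8.2e-08 and 0.0075). Of the 15 other genes of the family list, 3 had enough counts to be tested and 2 passed. Over all tested genes 63.9% passed, so these calls say little about the 2 genes. Tnfrsf18, which encodes GITR, stood at 652, 586 and 530 TPM, a mean of 589 ± 60.9 TPM. It was lowest in library 3, where Ms4a4b was highest.

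Markers of the labelled cell type were present, and so were markers of B cells and macrophages. All 12 T cell identity genes and all 6 regulatory T cell genes were at 1 TPM or more in every library. The T cell list summed to 16166, 16141 and 18269 TPM, and the regulatory T cell list to 2760, 2229 and 2314 TPM. In scaled counts, 10 of 12 genes of the T cell list and 0 of 6 of the regulatory T cell list were highest in library 3. In bulk RNA, fewer cells of a type and less RNA per cell cannot be told apart.

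Beside Ms4a1, 14 of 16 other B cell genes were at 1 TPM or more in every library. The list of 16 summed to 2354, 2057 and 2199 TPM, most of it from Ighm, the immunoglobulin heavy chain. In scaled counts, 9 of 16 were highest in library 3. Cd22, an inhibitory receptor of B cells, stood at 20.1, 16.8 and 29.8 TPM, and Ms4a1 was 18.3%, 20.7% and 19.3% of it. Cd79b, a signalling chain of the B cell receptor, stood at 46.1, 44.7 and 44.6 TPM, and Ms4a1 was 7.99%, 7.78% and 12.9% of it. The ratio of Ms4a1 to Cd22 thus varied less between the libraries than its ratio to Cd79b, but Cd22 does not stand for the list. The ratio to Fcrla also varied little, at 252%, 260% and 274%. For most of the 16 genes the ratio was highest in library 3. Ms4a1 was 16.6%, 16.1% and 27.8% of Ighd and 1.04%, 1.03% and 1.66% of Cd74. The part of B cells in the level of Ms4a1 was not tested.

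Beside Ms4a6d, 8 of 15 monocyte and macrophage genes were at 1 TPM or more in every library, and the list summed to 126, 128 and 107 TPM. The sum was lowest in library 3, where Ms4a6d was highest. In scaled counts, 3 of the 12 genes of the list that were tested were highest there. Lyz2, the lysozyme of myeloid cells, stood at 14.8, 15.0 and 7.45 TPM, and Csf1r, the receptor for macrophage growth factor, at 15.7, 14.9 and 12.0 TPM. Ccr2, a chemokine receptor of monocytes that T cells can also express, stood at 26.3, 20.9 and 16.1 TPM. Other genes of the list did not fall with these: Mpeg1 stood at 0.79, 1.17 and 1.83 TPM and Cd14 at 0.58, 1.59 and 1.73 TPM, both highest in library 3. The complement genes C1qa, C1qb and C1qc lay between 14.0 and 22.9 TPM and did not pass the test between libraries (chi-square with edgeR TMM scaling, adjusted p = 0.24, 0.23 and 0.21). Vsig4, whose protein partners that of Ms4a6d in macrophages, was at 0 in libraries 1 and 2 and at 0.06 TPM in library 3. The part of macrophages in the level of Ms4a6d was not tested. Sums were 3.41 to 3.83 TPM for dendritic cell genes, 0 to 2.72 TPM for granulocyte genes, with Ngp, Elane and Mpo at 0 throughout, 1.23 to 1.72 TPM for mast cell and basophil genes, with Mcpt8, Tpsb2 and Gata2 at 0 throughout, 4.46 to 8.51 TPM for NK cell genes, with Klra8 at 0 throughout, and 16.7 to 22.3 TPM for the 2 CD8 genes.

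The protein-coding genes whose log2(TPM + 1) over the 3 libraries lay closest to that of Ms4a4b were Coro1a, Cfl1, Rac2, Ly6e and mt-Cytb. Their largest difference from it in any library was 0.14, 0.14, 0.21, 0.26 and 0.28. Coro1a, an actin-binding protein of leukocytes, stood at 2812, 2792 and 2924 TPM. Closest to Ms4a1 were Mx1, Hist2h2be and Capsl, with largest differences of 0.09, 0.11 and 0.12, and Mx1, an interferon-induced antiviral gene, stood at 3.99, 3.62 and 5.77 TPM. With 3 libraries this likeness is mostly one of level.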

How the data were processed

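PolyA-selected RNA of regulatory T cells was measured in 3 libraries, which the labels call technical replicates of 1 biological replicate. Fragments were sheared on a Covaris instrument, per the labels. The authors deposited a gene and a transcript table per library with expected counts, their posterior SD, TPM and FPKM (mm10, GENCODE M21, per the deposited text), and the transcript table also gives each transcript's percent of its gene's TPM. The authors also deposited whole-number counts per gene (GENCODE M4). The sources used here do not give the aligner or the counter.

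The members and lists were chosen with earlier results of these data known. The named genes are the members, MS4A genes reaching 1 TPM in any library, Tnfrsf18, the 5 and 3 genes nearest in level to Ms4a4b and Ms4a1, and listed cell type markers beside a member. Ms4a2, Ms4a3 and Ms4a7 were named after their values were seen, and BE692007 for its shared sequence. Depth was 20996194, 18456254 and 17535472 expected counts, and 6339932, 5775622 and 5056487 counts in the second table. Expected counts were rounded, and genes averaging 10 or more entered Pearson's chi-square test against Poisson counting (2 degrees of freedom, edgeR 4.0.16 TMM scaling, R 4.3.3, scipy 1.17.1), with Benjamini-Hochberg adjustment over all genes and a threshold of 0.05. The test asks whether libraries differ by more than counting, not whether animals do, and was tested on simulated data. Levels are TPM as deposited, ratios use log2(TPM + 1), which understates ratios of low genes, and SD is over libraries. Shared words are 50-base stretches of exons found in the exons of another gene on either strand. The GC trend was a lowess curve (fraction 0.3) over genes averaging 100 counts or more. Alternatives were DESeq2 1.42.0 size factors, total counts, other filters and pseudocounts, FPKM, the second table, shares of counts and leaving out each library. Coding transcripts alone, merged exons, the trimmed coding transcript and the GC trend were added after seeing the data. In the second table, 22195 of 22457 genes matched the first annotation.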

Additional observations from a re-analysis of the deposited data

How the results depend on the processing

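No paired analysis was possible because the libraries form 1 group. The number of genes that differed between libraries was 6222 of 10964 in the second table, where fewer genes could be tested. It ran from 4487 of 14868 to 8041 of 14885 when 1 library was left out, which left 3 to 6 members called. DESeq2 size factors, total counts, a filter of 50 counts and no filter also called 6 members, where they called 9566 of 14877, 10065 of 14877, 8480 of 11316 and 9789 of 32364 genes. In the order Ms4a4b to Ms4a6b, Ms4a6b to Ms4a4c, Ms4a4c to Ms4a6c, Ms4a6c to Ms4a6d and Ms4a6d to Ms4a1, the log2 ratios were -0.29, 2.16, 1.12, 1.22 and 0.0586 in the second table, whose counts are not scaled for length. They were -0.49, 3.09, 2.25, 0.12 and 1.28 per kilobase of merged exons, and 0.91, 4.47, 2.14, -0.0297 and 0.88 per kilobase of the trimmed coding transcript. With coding transcripts alone the first 4 were -2.42, 3.31, 3.31 and -0.63. The ratio of Ms4a6d to Ms4a1 was 1.23 with a pseudocount of 0.1 and 1.00 in FPKM. Mean levels of Ms4a4b, Ms4a6b, Ms4a4c, Ms4a6c, Ms4a6d and Ms4a1 were 1907, 576, 41.5, 10.8, 6.72 and 2.82 in FPKM. They were 177, 249, 28.7, 5.22, 4.79 and 1.35 per kilobase of merged exons and 1247, 662, 29.1, 5.81, 6.07 and 2.81 per kilobase of the trimmed transcript. In coding TPM, Ms4a4b, Ms4a6b and Ms4a6c stood at 118, 634 and 5.51. The leading transcript's share of counts was 35.2%, 55.9%, 77.9%, 40.0% and 92.0% for Ms4a4b, Ms4a6b, Ms4a4c, Ms4a6c and Ms4a6d. Merged exons, the trimmed transcript and coding transcripts alone change the length or the transcripts counted by construction. FPKM differs from TPM by 1 factor per library by definition, and a pseudocount of 1 weighs more on its lower values. The cause of the shifts in the second table was not tested. Ms4a6c, Ms4a6d and Ms4a1 rest on 122 to 233 counts a library, which limits their precision.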
